A study of Mus musculus with 6 samples.

Results

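The Ifi200 family genes are a group of interferon-inducible genes that lie side by side on mouse chromosome 1. The 8 members described here, Ifi202b, Ifi203, Ifi204, Ifi205, Mnda, Mndal, Pydc3 and Pydc4, were taken by their symbols from the 24411 genes of the count tables, and all 8 were found. RNA-seq libraries of primary microglia (PM) were compared at 4-h in a pair of groups with 3 libraries each. PM of the first group received GSK-J4 at 10 μM, an inhibitor of the histone H3K27 demethylases, and PM of the second group received LPS at 10 ng/ml together with GSK-J4 at 10 μM. Thus GSK-J4 was present in both groups, and the comparison answers what LPS, a ligand of TLR4, changed in its presence. PM were shaken off mixed glial cultures made from pooled whole brains of ICR mice at 3 days of age. Untreated PM and PM with LPS alone were not analysed here.

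Proteins of this family carry a pyrin domain, which binds other pyrin domains, a HIN domain, which binds double-stranded DNA, or both. Several act as nuclear or cytosolic sensors of DNA or modulate the inflammasome, and others were first described as regulators of transcription, growth and differentiation of myeloid cells. Type I interferon raises many of these genes through the interferon-stimulated response element (ISRE) in their promoters, and LPS raises interferon beta in macrophages and microglia. The members arose by duplication and differ in number and expression between mouse strains.

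Each library held between 2597505 and 3472716 fragments counted on genes. The ribosomal RNA gene Rn45s took 22.2% to 32.4% of these fragments with GSK-J4 and 45.8% to 48.1% with LPS + GSK-J4. All levels below are CPM, that is, counts scaled to a common library size by TMM factors, with the SD over 3 libraries, and 3 counts in a library, the lower limit used, equalled 0.673 to 1.24 CPM. The 12 microglia markers, which were above 3 counts in every library, summed to 4056 to 4206 CPM with GSK-J4 and 3319 to 3417 CPM with LPS + GSK-J4, and by edgeR and DESeq2 0 of them were called, while 8 had an unadjusted p under 0.05, as did 34.8% of all genes tested. The 9 astrocyte markers, all of them detected, summed to 60.2 to 63.4 CPM and 143.6 to 175 CPM. By edgeR 2 of the 8 tested were called up, and by DESeq2 1 was called. In these bulk samples, fewer cells of a type and less RNA per cell cannot be told apart.

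The promoters are shown first, because type I interferon is known to raise many genes of this family through the ISRE. Whether it does so for the members in these PM was not tested. The RefSeq promoter table of GRCm38.p6 held 9 promoters for 7 members, with Mnda, Pydc3 and Pydc4 listed there as Ifi211, Ifi208 and Ifi213. No promoter was matched for Ifi204. The 160 bases before the start site follow for 1 promoter of each member, with the ISRE core GAAANNGAAA in capitals:
Ifi202b (chr1:173982845-173983004, minus strand): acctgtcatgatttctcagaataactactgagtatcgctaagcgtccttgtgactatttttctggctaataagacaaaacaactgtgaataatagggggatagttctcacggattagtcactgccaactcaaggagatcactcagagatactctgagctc
Ifi203 (chr1:173942493-173942652, minus strand): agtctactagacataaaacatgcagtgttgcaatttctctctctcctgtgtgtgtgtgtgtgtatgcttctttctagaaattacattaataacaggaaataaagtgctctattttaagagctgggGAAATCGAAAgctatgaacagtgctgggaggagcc
Ifi205 (chr1:174031756-174031915, minus strand): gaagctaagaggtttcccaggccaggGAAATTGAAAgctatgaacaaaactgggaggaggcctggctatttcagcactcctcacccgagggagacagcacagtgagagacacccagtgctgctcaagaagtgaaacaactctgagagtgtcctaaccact
Mnda (chr1:173913047-173913206, minus strand): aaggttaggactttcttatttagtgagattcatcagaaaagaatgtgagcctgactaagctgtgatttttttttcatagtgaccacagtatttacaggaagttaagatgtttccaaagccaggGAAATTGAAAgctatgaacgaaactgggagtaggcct
Mndal (chr1:173880188-173880347, minus strand): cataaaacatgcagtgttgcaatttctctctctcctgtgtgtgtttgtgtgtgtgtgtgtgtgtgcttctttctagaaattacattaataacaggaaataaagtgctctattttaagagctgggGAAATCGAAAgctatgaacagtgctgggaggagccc
Pydc3 (chr1:173673505-173673664, plus strand): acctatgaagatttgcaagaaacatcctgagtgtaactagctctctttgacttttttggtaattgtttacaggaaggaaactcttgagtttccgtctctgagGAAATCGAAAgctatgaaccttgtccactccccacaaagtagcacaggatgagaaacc
Pydc4 (chr1:173599273-173599432, minus strand): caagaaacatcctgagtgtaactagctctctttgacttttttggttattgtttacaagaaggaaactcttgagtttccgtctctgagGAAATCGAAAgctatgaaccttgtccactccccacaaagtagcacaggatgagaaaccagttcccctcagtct

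The ISRE core, searched on both strands from 250 bases before to 50 bases after the start site, was found in 6 of the 7 members and in 3.99% of the 27025 genes of the table, or 3.44% of its 32851 promoters, all of the same length. It lay 35 to 37 bases before the start site in Ifi203, Mnda and Mndal, 58 bases before it in Pydc3 and 73 bases before it in Pydc4. In Ifi205 it lay 134 bases before the start site, and a second match on the opposite strand began 23 bases after it. Both Ifi203 and Mndal have a second promoter in the table. That of Mndal held a match on the opposite strand, and that of Ifi203 held none. In the 6 members the core was followed by the same 9 bases, gctatgaac. The core with these bases was found in 7 of all promoters (0.0213%), those of the 6 members and of Ifi206, another gene of the cluster. The run was noticed in the printed sequences, and genes that arose by duplication share sequence. The window of Ifi202b held no ISRE core. It held a match to the GAS core TTCNNNGAA, which reads alike on both strands and was found in 8.30% of all promoters and in no other member. This window ended at position 173982795, while the GENCODE transcript used below for Ifi202b starts further downstream, at 173982744. The bases between these positions were not searched, so an ISRE core closer to that start would have been missed. The kappaB site, found in 8.46% of all promoters, matched only the second promoter of Ifi203. A match is a description of letters and not evidence of binding.

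Sequence shared between members bears on every count below, since the tables hold only fragments that STAR placed at a single position. In the GENCODE transcripts of the same assembly, the coding sequences of Ifi205 and Mnda were identical at 94.7% of 1212 aligned bases, those of Ifi204 and Mnda at 96.3% of 1242, and those of Pydc3 and Pydc4 at 96.9% of 1758. The longest identical run, of 495 bases, joined Ifi205, at coding bases 549 to 1043, with Mnda, at coding bases 612 to 1106. It spans exons 4 to 6 in both genes. Its first 101 bases, the length of 1 read, are shown because a read from them could come from either gene:
Ifi205 and Mnda: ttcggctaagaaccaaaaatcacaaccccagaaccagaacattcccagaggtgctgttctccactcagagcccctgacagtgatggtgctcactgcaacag

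For each member, every window of 101 bases of its longest coding transcript was looked up in the transcripts of all other genes. In Mnda 955 of 1685 windows (56.7%) and in Ifi205 626 of 1513 (41.4%) also occurred in another gene, so that reads from them could be lost from both counts. The share was 16.7% in Ifi204, 8.03% in Pydc3, 7.48% in Mndal, 5.85% in Pydc4 and 3.26% in Ifi203. Ifi202b shared none of its 1597 windows. Mates of a read pair can still place a shared read, and PM of ICR mice can differ from the reference strain, and neither was tested. In GENCODE, the annotated span of Mndal also covers Mnda and most of the span of Ifi203 on the same strand. How such overlaps were counted depends on the annotation of the authors, which is not given in the sources used here.

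**Figure D1:**
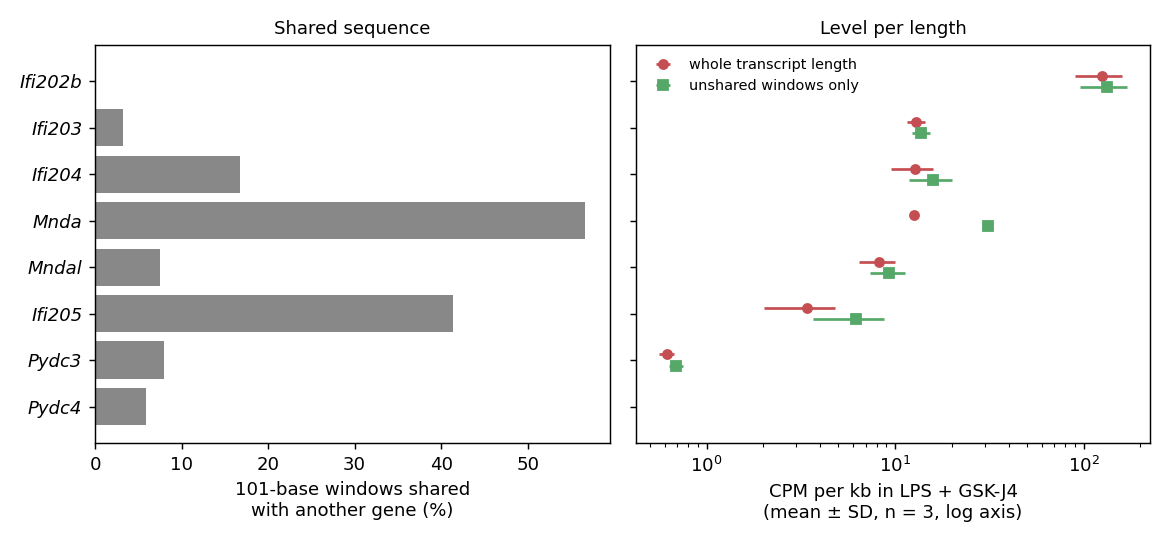
The left panel gives, for each member, the percentage of 101-base windows of its transcript that also occur in another gene. The right panel gives the level per length in LPS + GSK-J4 (CPM per kb, mean ± SD of 3 libraries, log axis) over the whole transcript (circles) and over unshared windows (squares), without Pydc4, which had 1 count. Mnda shares 56.7% of its windows, and its level per length moves from 12.7 to 31.0. The second value is too high if mates placed shared reads, which was not tested.

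The comparison of LPS + GSK-J4 with GSK-J4 gave 2 members up-regulated, Ifi202b and Mnda, where a call required an adjusted p no higher than 0.01 and a change by 1.5 or more on the log2 scale. By the same edgeR quasi-likelihood test another 3 members, Ifi203, Ifi204 and Mndal, passed the adjusted p with log2 fold changes of 1.18 to 1.44 and were not called. No member was called down by edgeR or DESeq2, and with an unadjusted p under 0.05 there were 0 lower members. The 5 tested members passed the filter on low counts in the libraries of both groups, and the 3 remaining members did not pass it. Thus 2 of 5 tested members were called up, beside 2.95% of all 10133 genes tested, and 0 were called down, beside 0.809%. At an adjusted p of at most 0.01 with any positive change, 5 of 5 tested members stood beside 8.42% of all genes. The median log2 fold change was 1.44 over the 5 tested members and -0.00064 over all genes. In 5 of 5 tested members the 3 libraries with LPS + GSK-J4 all lay above the 3 with GSK-J4, which held for 19.8% of the genes tested.

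**Figure D2:**
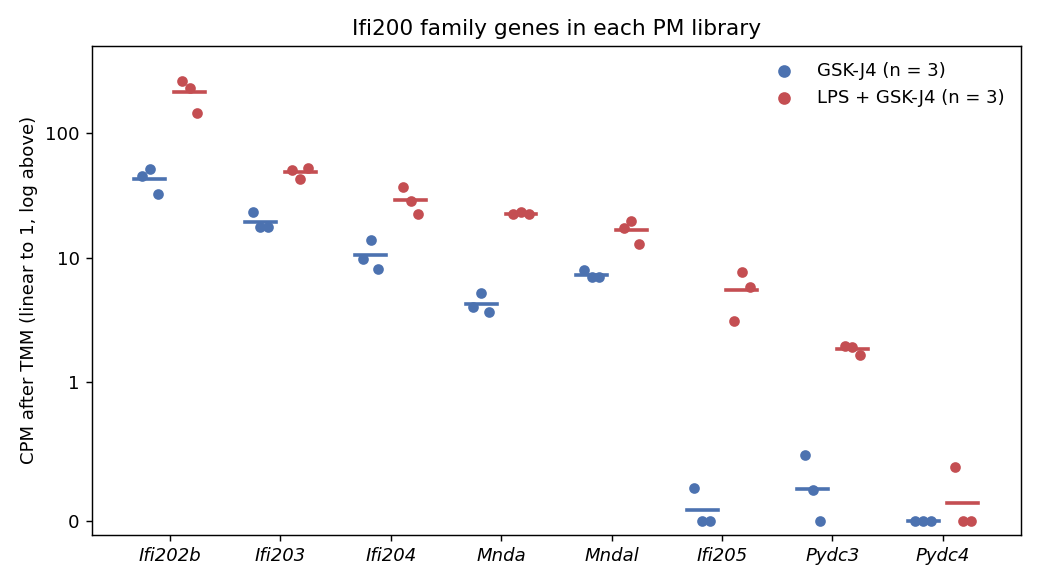
CPM after TMM of each member (x axis) in each library, with bars at the group means; the y axis is linear to 1 and logarithmic above. The groups lie apart in every member but Pydc4, and Ifi202b is the highest member in all 6 libraries, at 32.6 to 51.6 CPM with GSK-J4 and 144.9 to 259.5 CPM with LPS + GSK-J4.

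Ifi202b encodes a protein with HIN domains and no pyrin domain, which binds DNA and is known as an inhibitor of the Aim2 inflammasome. It had 190, 230 and 89 counts with GSK-J4 and 665, 605 and 351 counts with LPS + GSK-J4. After scaling these were 44.8, 51.6 and 32.6 CPM against 259.5, 231 and 145 CPM. Replicate 3 was the lowest library in each group, and the lowest value with LPS + GSK-J4 was still above the highest with GSK-J4. The mean rose from 43.0 ± 9.62 to 212 ± 59.6 CPM (SD, n = 3 libraries each). The log2 fold change was 2.28 ± 0.20 (SE), with an adjusted p of 6.2e-07 by edgeR's quasi-likelihood test with Benjamini-Hochberg adjustment, higher in 3 of 3 libraries.

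Mnda, named after the human myeloid cell nuclear differentiation antigen, encodes a protein of the same family. It had 17, 23 and 10 counts with GSK-J4 and 57, 61 and 54 counts with LPS + GSK-J4. These were 4.01, 5.16 and 3.67 CPM against 22.2, 23.3 and 22.3 CPM, and the 3 libraries with LPS + GSK-J4 were nearly alike. The mean rose from 4.28 ± 0.784 to 22.6 ± 0.580 CPM (SD, n = 3). The log2 fold change was 2.37 ± 0.24 (SE) with an adjusted p of 2.23e-06 (edgeR quasi-likelihood test), and it differed from that of Ifi202b by less than the SE of either. Without GSK-J4 replicate 1 or LPS + GSK-J4 replicate 3 that of Ifi202b was the higher. Its transcript shares windows with Ifi205, Ifi204, Mndal and AI607873, and reads from these may be missing from its count.

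Ifi203, Ifi204 and Mndal changed by less. Ifi204 encodes a protein with pyrin and HIN domains, regarded as the mouse counterpart of the human DNA sensor IFI16. Its level was 9.67, 13.9 and 8.07 CPM with GSK-J4 and 37.1, 28.2 and 22.3 CPM with LPS + GSK-J4. The groups did not overlap, and the log2 fold change was 1.44 ± 0.24 (SE) with an adjusted p of 0.000401 (edgeR quasi-likelihood test), just below the fold limit. Without GSK-J4 replicate 2, its highest library of that group, the log2 fold change was 1.69, and without LPS + GSK-J4 replicate 3 it was 1.59, and in both fits Ifi204 was called.

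Ifi203, which encodes a nuclear protein of the family, had 23.1, 17.7 and 17.6 CPM with GSK-J4 and 50.7, 42.7 and 52.4 CPM with LPS + GSK-J4. The log2 fold change was 1.31 ± 0.18 (SE), with an adjusted p of 4.98e-05 (edgeR quasi-likelihood test). Mndal, the Mnda-like gene, had 8.02, 6.96 and 6.97 CPM against 17.2, 19.8 and 12.8 CPM. In both genes every library with LPS + GSK-J4 was above every library with GSK-J4. For Mndal the log2 fold change was 1.18 ± 0.25 (SE), the smallest of the tested members, and the adjusted p was 0.00223 (edgeR quasi-likelihood test). Without GSK-J4 replicate 2 or LPS + GSK-J4 replicate 2 its adjusted p was 0.0141 or 0.0224, above the limit.

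Several markers of other glial cells and of neurons were higher with LPS + GSK-J4 as well. Of the 9 astrocyte markers, Gfap had a log2 fold change of 1.70, Sox9 of 1.53, Gja1 of 1.38 and Aqp4 of 1.37, while Aldh1l1 had -0.16, and no marker of the list was at 0. The 9 oligodendrocyte lineage markers, all of them detected, summed to 189.9 to 221 CPM with GSK-J4 and 365.9 to 423 CPM with LPS + GSK-J4, and the 5 neuron markers, all of them detected, to 14.8 to 19.1 and 32.4 to 40.6 CPM. By edgeR and DESeq2 0 of the markers of either list were called, and 5 of 7 and 2 of 2 tested had an unadjusted p under 0.05, beside the 34.8% of all genes. Of the untested neuron markers, Rbfox3 (0.520 and 0.257 CPM) and Syt1 (0.590 and 0.138 CPM) had lower means with LPS + GSK-J4. Snap25 (0.0786 and 1.07 CPM) had a higher mean. The 6 markers of fibroblasts and pericytes, none of them at 0, summed to 80.1 to 281 CPM and 138 to 427 CPM and overlapped. Of the endothelial markers, summing to 11.2 to 16.3 and 18 to 55.3 CPM, Cdh5 was called up by edgeR and not by DESeq2. Cldn5 was at 0, and Pecam1, not tested, had means of 1.01 and 0.790 CPM. Neutrophil markers, 1.91 to 4.96 CPM with S100a9 at 0, were low in all 6 libraries. The part of these cells, and of Rn45s, in the changes of the members was not tested. Without Rn45s, Mir6236 and Lars2 the same 2 members were called.

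The low members had 3 or fewer counts over the GSK-J4 libraries. Ifi205, whose protein is known to bear on inflammasome genes in macrophages, had 1, 0 and 0 counts with GSK-J4 and 8, 20 and 14 counts with LPS + GSK-J4. Every library with LPS + GSK-J4 was above the limit of 3 counts and every library with GSK-J4 was below it. The ratio of the summed and scaled counts was 63.1, with an exact 95% interval of 10.7 to 2550 that covers counting error only. In the fit without a filter the log2 fold change was 5.41 and the adjusted p 5.92e-10 (edgeR quasi-likelihood test), a size that depends on the prior count. By DESeq2's Wald test its adjusted p was 0.000237. The fit without a filter also gave Ifi202b an adjusted p of 1.4e-48 in place of 6.2e-07 (edgeR quasi-likelihood test). Values of p from that fit therefore cannot be set beside those of the main fit.

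Pydc3 and Pydc4 bear the name of pyrin domain-containing genes. Pydc3 had 2, 1 and 0 counts against 5, 5 and 4 counts. The ratio of the summed and scaled counts was 7.01 (exact 95% interval 1.96 to 38.0). In the fit without a filter its log2 fold change was 2.60 with an adjusted p of 0.0347 (edgeR quasi-likelihood test), above the limit of 0.01. Pydc4 had 0 counts in each GSK-J4 library and 1, 0 and 0 counts with LPS + GSK-J4, below the limit in every library. A change of Pydc4 was not detectable at this depth.

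Compared per length of transcript, the members differed widely in level. With LPS + GSK-J4, Ifi202b stood at 125 ± 35.1 CPM per kb (SD, n = 3). Ifi203, Ifi204 and Mnda followed at 13.0 ± 1.38, 12.7 ± 3.24 and 12.7 ± 0.325 CPM per kb, which did not differ beyond their spread. Mndal had 8.20 ± 1.75, below Mnda by more than the spread, Ifi205 3.42 ± 1.41 and Pydc3 0.614 ± 0.0541 CPM per kb. When only unshared windows were counted as length, Mnda had 31.0 ± 0.795 CPM per kb and stood second, above Ifi204 at 16.0 ± 4.07 and Ifi203 at 13.8 ± 1.47, and Ifi205 had 6.21 ± 2.56. All counts of a gene were divided by this length, so levels over unshared windows are too high where mates placed shared reads. The place of Mnda thus depends on this choice of length. With GSK-J4 the order by whole length was Ifi202b at 25.4 ± 5.67, Ifi203 at 5.19 ± 0.839, Ifi204 at 4.6 ± 1.32, Mndal at 3.61 ± 0.302 and Mnda at 2.40 ± 0.439 CPM per kb. Ifi203 and Ifi204 overlapped in their spread, and so did Ifi204 and Mndal. Over unshared windows Mnda had 5.86 ± 1.07, Ifi204 5.77 ± 1.65 and Ifi203 5.51 ± 0.891 CPM per kb with GSK-J4, which did not differ beyond their spread, and Mndal had 4.11 ± 0.343.

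The summed level of the 8 members was 90.4, 95.6 and 68.9 CPM with GSK-J4 and 392, 354 and 262 CPM with LPS + GSK-J4. Shares of the family's counts within a library do not depend on the scaling between libraries. Ifi202b took 49.6%, 54.0% and 47.3% with GSK-J4 and 66.2%, 65.1% and 55.3% with LPS + GSK-J4, and the groups did not overlap. Mnda took 4.44% to 5.40% against 5.67% to 8.50%. Ifi204 took 10.7% to 14.6% against 7.97% to 9.45%, and Mndal 7.28% to 10.1% against 4.38% to 5.60%. The shares of Ifi203, 18.5% to 25.6% against 12.1% to 20.0%, overlapped. With 3 libraries against 3 an exact permutation test cannot give a p below 0.1, so no test of the shares is given.

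**Figure D3:**
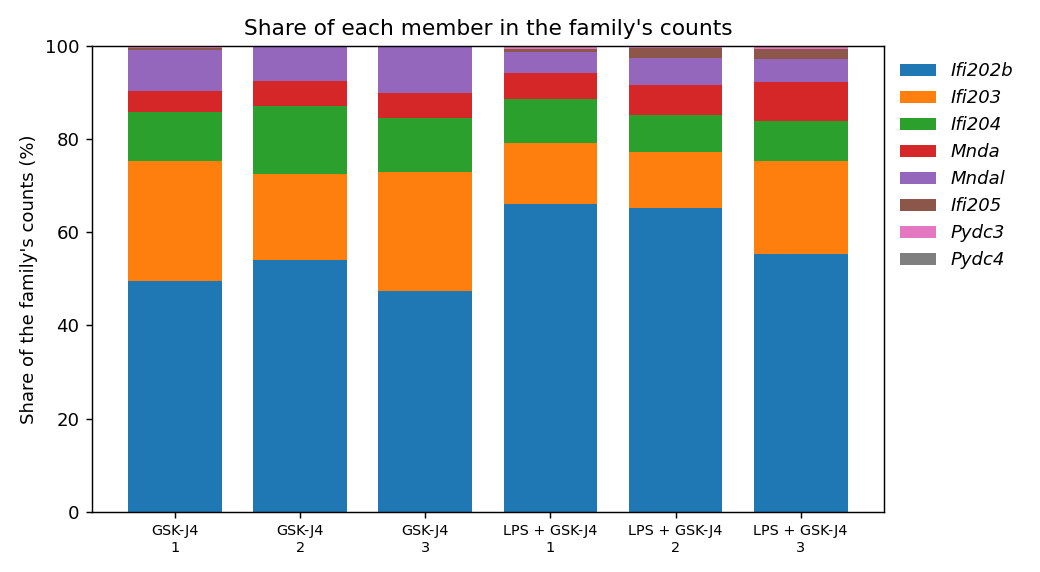
Stacked bars give the share (%) of the family's counts taken by each member in each of the 6 libraries. The share of Ifi202b lies between 47.3% and 54.0% with GSK-J4 and between 55.3% and 66.2% with LPS + GSK-J4.

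Ratios between members within a library showed the same division. There were 2.41, 2.70 and 2.20 counts of Ifi204 for 1 of Mnda with GSK-J4 and 1.67, 1.21 and 1.00 with LPS + GSK-J4. Counts of Ifi202b for 1 of Ifi204 were 4.63, 3.71 and 4.05 against 7.0, 8.18 and 6.50. Counts of Ifi202b for 1 of Mnda were 11.2, 10.0 and 8.90 against 11.7, 9.92 and 6.50, and the groups overlapped. In 5 of 6 pairs of a called and an uncalled member the groups did not overlap, Ifi202b with Ifi203 being the exception, and in 0 of 4 pairs of members with the same outcome were they apart. Since these pairs were grouped by the calls, they describe the calls and add no test to them.

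Neighbours of the members in the cluster were looked at next. AI607873, listed in RefSeq as Ifi207, had 45.8 ± 5.32 CPM with GSK-J4 and 259.5 ± 27.4 CPM with LPS + GSK-J4 (SD, n = 3). Its log2 fold change of 2.49 ± 0.14 (SE), with an adjusted p of 1.61e-09 (edgeR quasi-likelihood test), was close to those of Ifi202b and Mnda. Its promoter held the ISRE core 41 bases before the start site, without the 9 bases that follow it in the members. Aim2, the cytosolic DNA sensor that forms an inflammasome, had 35.7 ± 6.94 and 34.5 ± 6.47 CPM. Its log2 fold change was -0.06 ± 0.19 (SE) and its adjusted p 0.856 (edgeR quasi-likelihood test), and its groups overlapped. The number of Ifi202b counts for 1 of Aim2 was 1.22, 1.23 and 1.16 with GSK-J4 and 6.21, 7.12 and 4.94 with LPS + GSK-J4. Pyhin1 had 3, 6 and 2 counts against 16, 10 and 14 and did not pass the filter. It was tested in 10 of the other fits and called in each, for example at 2.36 with an adjusted p of 0.000136 without a filter (edgeR quasi-likelihood test). Its GSK-J4 counts lay below the minimum count of 10. A count filter thus admitted Pyhin1 through the LPS + GSK-J4 libraries, where it is high, and its calls in such fits are no further support. BC094916 did not pass the filter either. Of the 15 symbols listed for the rest of the cluster, 4 matched a gene of the tables, and some of the others are newer names of members.

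**Figure D4:**
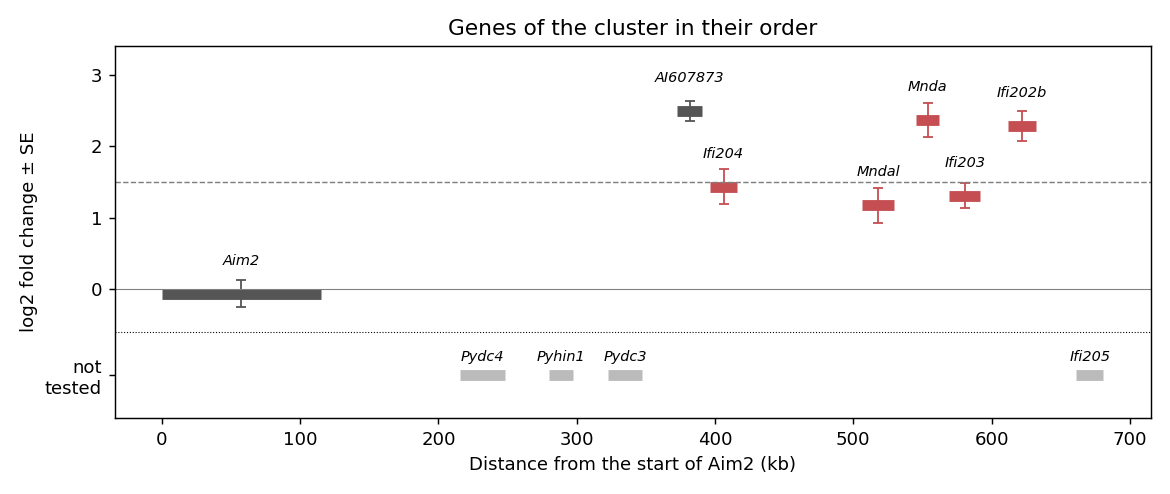
Genes of the cluster in their order on chromosome 1, by distance from the start of Aim2 (kb, x axis), with the log2 fold change of LPS + GSK-J4 against GSK-J4 (y axis, bars are SE). Members are red and other genes dark grey, genes that were not tested stand in grey below the dotted line, and the dashed line is the limit of 1.5. Ifi202b (2.28), Mnda (2.37) and AI607873 (2.49) lie above the limit and Aim2 lies at -0.06.

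Partners that Ifi200 proteins are known to bind or act on were not called. The 9 genes were the retinoblastoma family, E2f1, p53 with genes linked to it, and Ubtf. Of these 9 were tested and 0 were called by edgeR or DESeq2, with a median log2 fold change of -0.06. An unadjusted p under 0.05 was found in 3, a share close to that of all genes (34.8%). These were Cdkn1a, Trp53 and Mdm2, all higher with LPS + GSK-J4. Trp53 had 0.51 and Mdm2 0.37, with adjusted p of 0.0220 and 0.0269 (edgeR quasi-likelihood test). Cdkn1a, the p53 target and cell cycle inhibitor, had the highest value, 1.03 with an adjusted p of 3.15e-05 (edgeR quasi-likelihood test), below the fold limit. E2f1, a transcription factor bound by the retinoblastoma protein, had the lowest, -0.32.

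Of 15 tested genes of DNA sensing and the inflammasome, 4 were called up and 0 down, with a median of 0.02. Those called were Il1b (4.00), the cytokine released through inflammasomes, Nlrp3 (3.64), an inflammasome sensor, Trex1 (2.86), a DNA exonuclease, and Casp4 (1.92), which responds to cytosolic LPS, all as log2 fold changes. Gsdmd, the pore former of pyroptosis, had the lowest value, -0.62 with an adjusted p of 0.0238 (edgeR quasi-likelihood test). Pycard, the adaptor that Aim2 needs, had -0.17.

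Of 13 tested genes of type I interferon and its signalling, 4 were called up and 0 down, with a median of 0.45. Ifnb1, which encodes interferon beta, was at 0.0786 ± 0.136 CPM with GSK-J4 and 88.3 ± 9.80 CPM with LPS + GSK-J4 (SD, n = 3). The transcription factor gene Irf1 (3.27) and the inhibitor genes Socs1 (2.55) and Usp18 (1.54) were also called. Ifnb1, with 1, 0 and 0 counts with GSK-J4, and Socs1, with 5, 5 and 2, passed the filter through the LPS + GSK-J4 libraries only. Their calls are thus no further support, and with at least 10 counts in every library 2 genes of this list were called up. Usp18 was close to the fold limit and was not called without GSK-J4 replicate 3 (1.43), without LPS + GSK-J4 replicate 3 (1.26) or without the filter (1.49). Irf8, a factor of the myeloid lineage, had the lowest value, -0.28. The receptor genes Ifnar1 and Ifnar2 had 0.07 and -0.03.

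The Ifit and Gbp families, which interferon also induces, had higher medians over their tested genes than the members. In the Ifit family, whose proteins bind viral RNA, 5 of 5 tested genes were called up, from 3.24 for Ifit3b to 6.58 for Ifit1, with Ifit2, Ifit3 and Ifit1bl2 between them and a median of 4.41. In the Gbp family of guanylate-binding proteins, 6 of 7 were called up, with Gbp5 at 7.37, Gbp2, Gbp3 and Gbp7 between 3.25 and 4.61, and a median of 3.25. Gbp6 (2.08) and Gbp10 (2.15) were called but lay below Ifi202b and Mnda, and Gbp9 (-0.03) lay below every tested member. Several of these genes passed the filter through the LPS + GSK-J4 libraries only. For example, Ifit1bl2 had 3, 0 and 1 counts with GSK-J4 and Gbp5 had 8, 2 and 2. The tested members passed it in both groups, so the medians are not drawn alike. With at least 10 counts in every library, 1 Ifit gene and 0 Gbp genes were called up. The difference between families was not tested.

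**Figure D5:**
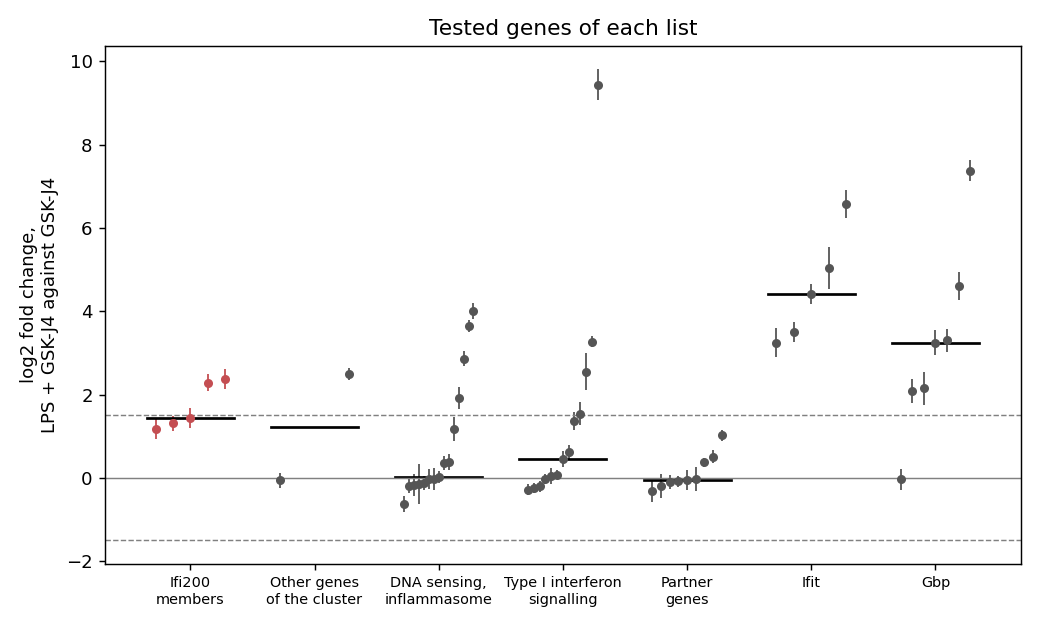
Log2 fold changes of LPS + GSK-J4 against GSK-J4 (y axis, bars are SE) for the tested genes of each list (x axis), with black bars at the medians and dashed lines at an absolute value of 1.5. The 5 members (red) lie between 1.18 and 2.37, and the 5 Ifit genes between 3.24 and 6.58.

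The profile over the 6 libraries, as log2 CPM centred on the mean of each gene, was compared between each tested member and all tested genes by the root mean square difference. For Ifi202b the nearest were A530032D15Rik (0.177), Slfn2 (0.184) and Bcl2a1a (0.210), and Mnda stood at place 12. For Mnda they were Rcan1 (0.0915), Il1rn (0.106) and A630072M18Rik (0.141), and Ifi202b stood at place 30. For Ifi203 they were Mapkapk2 (0.0791), Aplp1 (0.0822) and Has2 (0.0839), for Ifi204 Dscam (0.101), Dcx (0.106) and Plek (0.146), and for Mndal Kitl (0.0905), Denr (0.0996) and Plekha5 (0.0997). No member was among the 3 nearest of another. Of these nearest genes, Aplp1, Dscam and Dcx are known as genes of neurons, while the authors name Il1rn as a gene of inflammation and immunity. The others were not classed. With 6 libraries in 2 groups this measure mostly reads the fold change.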

How the data were processed

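RNA-seq counts of 6 PM libraries were used. Per the labels, the authors processed the reads with CASAVA 1.8.2 and Trimmomatic 0.33, aligned paired reads of 101 cycles to mm10 with STAR 2.5.1 and deposited raw counts of uniquely placed fragments per gene. The annotation is not given in the sources used here. The reverse-strand column was used, and groups were taken from the labels. Counts were scaled by TMM and tested in edgeR 4.0.16 (R 4.3.3) by filterByExpr (minimum count 10, minimum total 15) and the robust quasi-likelihood test, LPS + GSK-J4 against GSK-J4, with Benjamini-Hochberg adjustment over 10133 genes. A call needed an adjusted p no higher than 0.01 and a change by 1.5 or more on the log2 scale. DESeq2 1.42.0 was an alternative, and both were tested on simulated data. Members and gene lists were chosen with earlier results of these data known. The genes named are the members, the called and the extreme genes of each list, the 3 nearest profiles of each member and cell type markers. The result of 1 marker list is not reported here. Sequences are from RefSeq (GRCm38.p6) and GENCODE transcripts, aligned with Biopython 1.88. Mean values carry the SD, fold changes the SE, and intervals cover counting error only.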

Additional observations from a re-analysis of the deposited data

Results flagged for a closer look

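Fragments of the strand opposite to a member enter no comparison, and 3 members had more of them, and over 3, in a library with LPS + GSK-J4 than in any with GSK-J4. Ifi202b had 1, 10 and 0 with GSK-J4 and 15, 9 and 16 with LPS + GSK-J4, 2.34% of its fragments of both strands. Its counts on its own strand were also higher with LPS + GSK-J4, 665, 605 and 351 against 190, 230 and 89. Ifi203 had 1, 2 and 1 against 5, 1 and 2, or 1.98%, and Pydc3 had 1, 0 and 0 against 3, 4 and 1, or 34.6% of 26 fragments. Over all genes 0.966% to 1.38% of fragments per library lay on the opposite strand. The cause was not tested.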

How the results depend on the processing

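Ifi202b and Mnda were called in each of the 13 other fits, with log2 fold changes of 2.11 to 2.49 and 2.29 to 2.53. Members called up numbered 2 to 4 when 1 library was left out, the 4 without GSK-J4 replicate 2, where Ifi204 and Ifi205 joined. They numbered 3 in DESeq2 and without a filter, where Ifi205 joined, and 5 when the limits were 0.05 for the adjusted p and 1 for the log2 change, and 5 under the main p limit with no fold limit. No member was called down in any fit. Under the last 2 rules 844 and 853 genes were called up and 285 and 553 down, instead of 299 and 82, and with at least 10 counts in every library 176 were called up. That filter leaves out genes near 0 with GSK-J4, and 1 Ifit gene, 0 Gbp genes and 2 interferon signalling genes were then called up. Interferon signalling genes called up numbered 3 without a filter and with the replicate block, where Usp18 was not called, and 3 to 5 when 1 library was left out. Of the other genes of the cluster, 2 in place of 1 were called in 10 fits, where Pyhin1 joined, with the limit on its filter given above. Ifi203 and Mndal were not called at the main limits in any fit. Ifi205 was tested in 6 of the other fits and called in each, at 4.90 to 7.04. In those that left out a library, Ifi205 passed the count filter through the LPS + GSK-J4 libraries only, where it is high. Its calls there are therefore no further support. The deviations of libraries with the same replicate number had correlations of -0.01, 0.12 and 0.30, and those with different numbers of -0.29 to 0.24. Not every library correlated best with its own number. Without a test these few values cannot show whether the number pairs the libraries. With the replicate block 2 members, 306 genes up and 90 down were called. The length of unique sequence in the genome was not run, since no genome was used here. Depth limits Pydc3 and Pydc4, and shared sequence limits the levels of Mnda and Ifi205.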
